A study of Mus musculus with 4 samples.

Results

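Bidirectional promoters are the stretches between genes that lie head to head, 1 on each DNA strand, and are transcribed away from each other. The ATAC-Seq sites over such promoters were chosen by position alone. A site was a member when its midpoint lay within 1 kb of the transcription start sites (TSSs) of 2 protein-coding autosomal genes on opposite strands, with the minus-strand TSS before the plus-strand TSS or at most 200 bp past it. Gene-level TSSs were those of the GENCODE annotation of mm10. There were 815 members among the 82325 sites of the table, 1.01% of the 80465 autosomal sites. They belonged to 755 gene pairs with 1510 genes, and 695 pairs had 1 site while 60 had 2.

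The study asked how HAT1, an enzyme that acetylates histone H4 as it is made, alters chromatin accessibility. ATAC-Seq reads mark where the Tn5 transposase could cut, so the reads over a site follow how open it was. The 4 libraries came from mouse embryonic fibroblasts (MEFs) of C57bl6 strain background that had been immortalized with SV40 T antigen, 2 with the genotype HAT1 WT and 2 with HAT1 KO. Each library was a separate immortalized line, all lines carried T antigen and were grown in DMEM with serum, and replicates were numbered in accession order, which pairs nothing across genotypes.

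Head-to-head genes share 1 stretch of open, CpG-rich DNA from which polymerases leave in both directions. Many such pairs encode proteins that every growing cell needs, such as DNA repair factors, chaperones, histones and parts of the mitochondrial ribosome. Their promoters usually lack a TATA box, and binding motifs of ETS factors, NRF1, YY1 and NF-Y are common in them.

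The stretches between the TSSs are shown for 8 pairs that recur in the results below: a repair gene pair from textbooks, the member with the smallest p, a member among the 5 strongest, an imprinted pair with a weak site, a chaperone pair, a histone pair, a pair rich in NF-Y motifs and the promoter of a tumour suppressor. Each is the plus strand of mm10, read 5′ to 3′ from the base after the minus-strand TSS to the base before the plus-strand TSS. They lie outside both genes of the pair at chr11:101551956-101552148 for Brca1/Nbr1, chr19:12796127-12796192 for Zfp91/Lpxn, chr17:48409907-48410013 for Nfya/Oard1, chr7:6730432-6730577 for Peg3/Usp29, chr2:3512815-3513029 for Hspa14/Cdnf, chr13:23683949-23684198 for Hist1h2ac/Hist1h2bc, chr12:111813874-111814169 for Xrcc3/Zfyve21 and chr11:69580256-69580358 for Wrap53/Trp53. Capitals mark the letters searched for ETS factors (CCGGAAG), NF-Y (CCAAT), SP factors (GGGCGG) and the TATA box (TATAAA), on either strand.
Brca1/Nbr1: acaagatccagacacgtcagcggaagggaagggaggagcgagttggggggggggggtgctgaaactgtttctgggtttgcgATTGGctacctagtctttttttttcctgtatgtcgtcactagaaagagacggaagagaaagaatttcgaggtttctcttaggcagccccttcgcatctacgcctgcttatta
Zfp91/Lpxn: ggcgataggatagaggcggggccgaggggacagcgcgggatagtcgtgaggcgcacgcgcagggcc
Nfya/Oard1: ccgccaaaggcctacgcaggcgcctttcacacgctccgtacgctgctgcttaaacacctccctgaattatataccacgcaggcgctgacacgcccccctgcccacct
Peg3/Usp29: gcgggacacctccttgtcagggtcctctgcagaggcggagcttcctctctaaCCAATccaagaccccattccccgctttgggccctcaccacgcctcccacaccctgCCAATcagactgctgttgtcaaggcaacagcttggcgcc
Hspa14/Cdnf: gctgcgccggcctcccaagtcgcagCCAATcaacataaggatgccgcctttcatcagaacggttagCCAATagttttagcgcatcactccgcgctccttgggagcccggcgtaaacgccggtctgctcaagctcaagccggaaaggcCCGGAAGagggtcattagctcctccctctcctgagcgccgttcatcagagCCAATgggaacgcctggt
Hist1h2ac/Hist1h2bc: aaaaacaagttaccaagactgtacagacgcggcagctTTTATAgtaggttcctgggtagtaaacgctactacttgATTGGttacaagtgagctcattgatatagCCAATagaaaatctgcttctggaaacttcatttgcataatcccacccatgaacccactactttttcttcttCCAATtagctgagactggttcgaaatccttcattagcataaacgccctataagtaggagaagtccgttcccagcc
Xrcc3/Zfyve21: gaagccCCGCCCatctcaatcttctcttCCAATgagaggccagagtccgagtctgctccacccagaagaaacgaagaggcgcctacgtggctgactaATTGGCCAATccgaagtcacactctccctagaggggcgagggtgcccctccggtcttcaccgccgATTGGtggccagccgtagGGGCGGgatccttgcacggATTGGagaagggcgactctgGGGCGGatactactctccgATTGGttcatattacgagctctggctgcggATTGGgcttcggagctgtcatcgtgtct
Wrap53/Trp53: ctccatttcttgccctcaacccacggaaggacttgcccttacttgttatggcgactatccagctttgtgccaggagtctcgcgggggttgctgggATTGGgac

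The Xrcc3/Zfyve21 stretch held 7 NF-Y and 3 SP motifs in 296 bases. The Hspa14/Cdnf stretch held 3 NF-Y motifs and 1 ETS motif, and the histone stretch held 3 NF-Y motifs and 1 TATA motif at a GC content of 41.6%. The short Zfp91/Lpxn stretch had a GC content of 72.7% and none of the letters searched, and the Nfya/Oard1 stretch held none either. A match of letters is a description and not a bound factor.

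Values are the authors' normalized counts, read counts scaled by 1 factor for each library, then rounded. The factors recovered from the pattern of low values gave approximate depths of 9420000 and 11400000 reads over sites in WT replicates 1 and 2, and 7830000 and 5650000 in KO replicates 1 and 2. About 375, 432, 301 and 232 reads then stood behind the median member, so counting error was largest in KO replicate 2. The Hat1 promoter site on chromosome 2 read 390 and 384 in the WT lines and 438 and 368 in the KO lines (log2 fold change 0.05, SE 0.14), and this site does not check the genotype labels. For 10 fibroblast markers, 9 had a promoter site, with summed values of 2612 to 3201 per library, against 112 to 196 for the 3 of 5 epithelial, 203 to 312 for the 3 of 4 endothelial, 152 to 215 for the 1 of 4 blood and 374 to 602 for the 2 of 4 neural markers with a site. None of the 3 muscle markers had a promoter site. The sums run over 9, 3, 3, 1 and 2 genes, so their sizes do not compare one cell type with another.

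Bidirectional promoters were among the most open sites of these cells. The median member read 319 and 309 in WT replicates 1 and 2, and 324 and 350 in KO replicates 1 and 2. The 11048 autosomal sites with protein-coding TSSs on only 1 strand, called one-direction promoter sites here, had medians of 201, 190, 197 and 195 in the same order. The 68312 autosomal sites farther than 1 kb from any protein-coding TSS had medians of 44, 45, 44 and 44. In every library the members stood above both other kinds. Of the members, 794 (97.4%) had a mean value no lower than 52, the median over all sites, and 543 (66.6%) were in the highest decile, at 256 or over. The share of one-direction promoter sites in that decile was 37.1%.

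**Figure D1:**
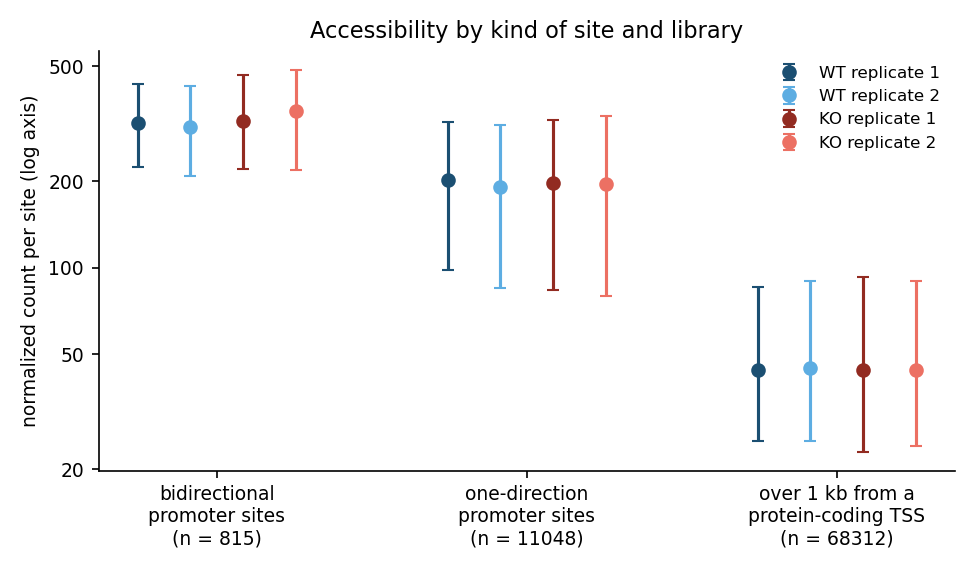
Normalized count per site (log axis) in each of the 4 libraries for bidirectional promoter sites, one-direction promoter sites and sites over 1 kb from a protein-coding TSS; points are medians over sites and bars run from the lower to the upper quartile of sites. Medians of the bidirectional sites lie between 309 and 350, above the one-direction medians of 190 to 201 in all 4 libraries.

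Value and length went together. Members had a median length of 953 bp, one-direction promoter sites 783 bp and distal sites 412 bp. Sites with TSSs on both strands in another order had 972.5 bp. Per kb of site the medians of members, one-direction promoter sites and distal sites were 332, 242 and 108 normalized counts, so members remained the highest of these 3 kinds. The 290 autosomal sites with TSSs on both strands in another order came close to the members, with medians of 297, 290.5, 307 and 314.5 in the same order of libraries and 313 per kb. Across the 815 members, level and length had a Spearman rank correlation of 0.68, a description over sites that share the same libraries and whose values sum over their length. The median GC content of the 300 bases around the midpoint was 63.7% in members and 65.7% in one-direction promoter sites, and the ratio of observed to expected CpG was 0.85 and 0.80. Sites with TSSs in another order had 66.0% and 0.85. Level hardly followed the CpG ratio among members (rank correlation 0.09, over the same 815 sites).

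The TSSs of a pair were close. The median distance was 96 bp (quartiles 40 and 202.5 bp, range -200 to 1224 bp, where a negative value means overlapping TSSs), and 695 members (85.3%) had less than 300 bp between them. In 696 members (85.4%) the site reached over both TSSs, and its midpoint lay at a median of 123.5 bp from the centre of the pair. Of 882 annotated autosomal pairs in this range of distances, 779 (88.3%) had a member site, and the other 103 are not analysed here. At 26 sites several pairs met the rule, and the pair with the closest TSSs is used, while 36 sites had at least 1 further TSS within 1 kb.

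Members with 100 to under 1000 bp between the TSSs had higher medians than the other classes of distance. The 300 sites with 0 to under 100 bp between TSSs had a median of 278.0, the 278 sites with 100 to under 300 bp a median of 382.0, and the 111 sites with 300 to under 1000 bp a median of 389.5. The 117 sites with overlapping TSSs had a median of 308.5 and the 9 sites with 1000 bp and over a median of 237. Their median lengths lay between 830 and 998 bp, and per kb the medians were 314, 297, 372, 389 and 318 in order of distance, so the step between the first pair of classes without overlap was also present per kb. It was seen in each library, at 277.0 against 370.0 and 265.5 against 364.0 in the WT lines and 280.0 against 379.0 and 292.5 against 425.0 in the KO lines. Over all members the rank correlation of distance and level was 0.25, a description over sites of the same libraries.

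**Figure D2:**
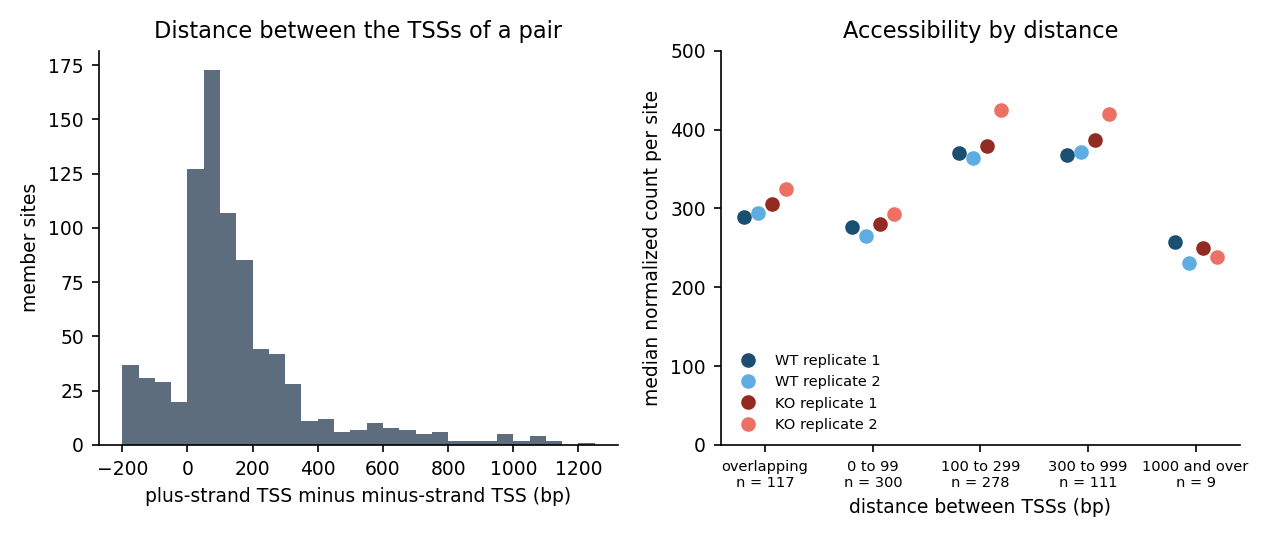
Left, number of member sites by the distance between the plus-strand and minus-strand TSS in bins of 50 bp; right, the median normalized count of each distance class in each of the 4 libraries, with the number of sites under each class. Both classes from 100 to under 1000 bp stand above the class under 100 bp in all 4 libraries.

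Motifs were counted in 300 bases around each midpoint, on both strands. The ETS letters CCGGAAG, the core bound by GABP, were found in 24.7% of members, 13.1% of one-direction promoter sites, 1.94% of distal sites and 3.76% of all sites. The NRF1 letters CGCATGCG were found in 4.54% of members against 2.08% of one-direction promoter sites (0.505% of all sites), and the YY1 letters AAGATGGCG in 4.29% against 2.32% (0.599%). The letters TGACGTCA of the cAMP response element were found in 3.8% against 2.32% (0.839%), and CTCGCGAG in 2.21% against 1.17% (0.243%). All of these had a higher share in members than in one-direction promoter sites. The 290 sites with TSSs on both strands in another order had 19.7% for ETS, 3.79% for YY1 and 2.07% for CTCGCGAG, nearer to the members. They had 1.72% for the NRF1 letters and 1.72% for the cAMP response element. The NF-Y letters CCAAT were found in 39.4% of members, 27.5% of one-direction promoter sites and 33.1% of distal sites (32.5% of all sites). The SP letters GGGCGG had more even shares in both kinds of promoter, 66.5% and 62.5% (17.3% of all sites), as did TATAAA, 3.56% and 4.12% (14.6%). The AP-1 letters TGAGTCA or TGACTCA, frequent in distal sites at 35.5% (30.9% of all sites), were found in 2.58% of members and 5.47% of one-direction promoter sites. Within the members, the 321 sites with CCAAT had a median value of 379.8 and the 494 without it 296.0, at median lengths of 936 and 958.5 bp. Per kb these groups had medians of 401 and 301. The 201 sites with ETS letters had a median of 308 (925 bp long, 336 per kb) and the 614 without them 334 (965.5 bp, 330 per kb), so their order turned per kb. These shares and medians are descriptions over sites and were not tested.

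**Figure D3:**
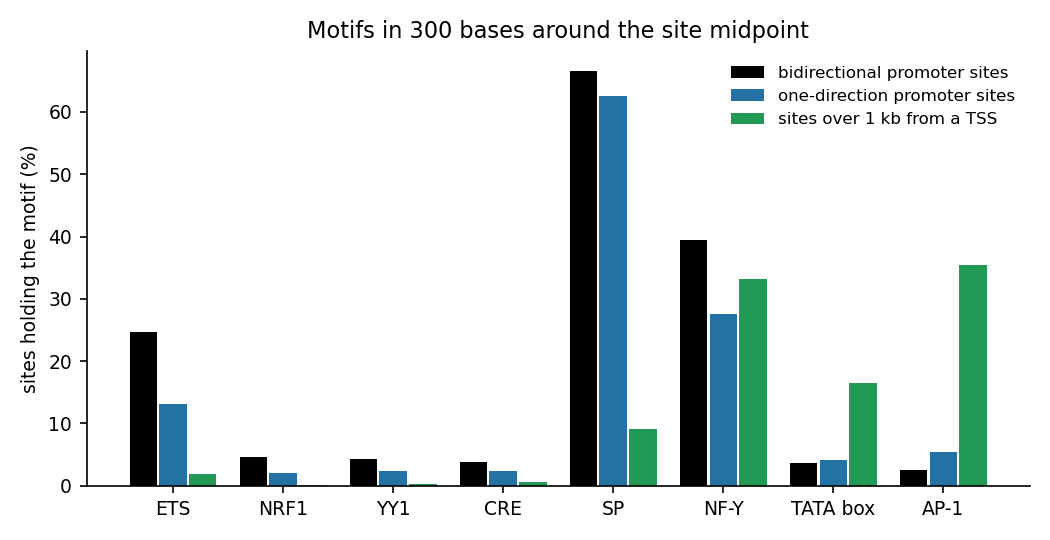
Percentage of sites holding each motif in the 300 bases around the midpoint, for bidirectional promoter sites (n = 815), one-direction promoter sites (n = 11048) and sites over 1 kb from a protein-coding TSS (n = 68312); bars are shares of sites in the reference sequence. ETS motifs stand at 24.7% in bidirectional and 13.1% in one-direction sites, and AP-1 motifs at 2.58% in bidirectional and 35.5% in distal sites.

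Genes of the cell's basic machinery were often found at members. Of 20780 autosomal protein-coding genes, 7.27% had a member site. The share was 26.1% of DNA repair genes (23 of 88), 21.4% of DNA replication genes (12 of 56), 26.9% of mitochondrial ribosome genes (21 of 78), 26.9% of respiratory chain genes (21 of 78) and 29.4% of mitochondrial tRNA synthetases (5 of 17). It was 22.4% of histone genes (17 of 76), 19.6% of splicing genes (18 of 92), 17.1% of chaperones (14 of 82), 14.5% of cytosolic ribosome genes (11 of 76), 13.2% of proteasome genes (5 of 38) and 8.33% of purine synthesis genes (1 of 12). Lower shares than over all genes were found for zinc finger proteins (27 of 449, 6.01%), basement membrane and matrix genes (4 of 83, 4.82%), and transcription factor and signalling genes of development (2 of 199, 1.01%).

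Textbook pairs showed how widely the members ranged. The site of Brca1/Nbr1, a homologous recombination gene and a selective autophagy receptor, read 727 and 694 in WT and 813 and 920 in KO (chr11:101551685-101553108). Atm/Npat, a DNA damage kinase and an activator of histone genes, read 502 and 507 in WT and 533 and 683 in KO. Both KO lines stood above both WT lines at these pairs, with log2 fold changes of 0.28 (SE 0.09) and 0.26 (SE 0.14). Gart/Son, a purine synthesis enzyme and a splicing factor, read 534, 539, 537 and 608 in the order WT replicates 1 and 2, KO replicates 1 and 2, and the genotypes overlapped. Hspd1/Hspe1, the mitochondrial chaperonin and its lid, read 402, 412, 434 and 471 in that order. Fen1/Tmem258, with the flap endonuclease of replication, read 371, 357, 522 and 393. KO stood above WT at the chaperonin pair by less than 1.5-fold (log2 fold change 0.15, SE 0.12), and at Fen1/Tmem258, on chromosome 19, the larger part of the difference came from KO replicate 1.

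Col4a1/Col4a2, the chains of the type IV collagen found in most basement membranes, read 364, 350, 400 and 308. Their relatives Col4a4/Col4a3, known from the kidney filter, read 54, 37, 51 and 17. Per kb of site the means were 244 and 78.6, so the ubiquitous collagen pair was the more open, and the genotypes overlapped at both. Wrap53/Trp53, a telomerase assembly factor and the tumour suppressor p53, read 185, 144, 169 and 205, the lowest mean value of the 7 textbook pairs with a member site, over a short site of 435 bp (404 per kb). Of other pairs on the textbook list, Ppat/Paics, Tap1/Psmb9 and Htra2/Aup1 had TSSs overlapping by more than the rule allows (-271, -211 and -752 bp). Prkdc/Mcm4, Surf1/Surf2 and Sars2/Mrps12 met the distance but had no member site and are not analysed here.

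The members with the highest values per site were spread over several functions. Srgap2/Fam72a, with a GTPase-activating protein, read 1218 and 1211 in WT and 1347 and 1618 in KO. Cep57/Fam76b, with a centrosome protein, read 1168, 1256, 1260 and 1368. Nfya/Oard1, with a subunit of NF-Y and an ADP-ribose hydrolase, read 907, 900, 979 and 1176. KO replicate 2 was the highest library at all of these. Gamt/Dazap1, with an enzyme of creatine synthesis and an RNA-binding protein, read 867, 884, 967 and 1242, and Clcn2/Polr2h, with a chloride channel and an RNA polymerase subunit, read 958, 857, 994 and 1002. These sites were 1299 to 2172 bp long, and their means per kb ranged from 439 at Clcn2/Polr2h to 762 at Gamt/Dazap1, above the members' median of 332. Their log2 fold changes lay between 0.12 and 0.32, and 4 of the 5 turned negative when the libraries were quantile normalized: Cep57/Fam76b went from 0.12 to -0.20, Clcn2/Polr2h from 0.14 to -0.12, and Nfya/Oard1 (0.25) and Srgap2/Fam72a (0.28) to -0.03. Gamt/Dazap1 went from 0.32 to 0.06.

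Only 21 members had a mean value below the median of all sites. For 12 of them the pair had 2 sites, the weak one usually lying beside a stronger one, as at Cct5/Fam173b (38.3 beside 363, means over libraries) and Alyref/Anapc11 (40.8 beside 274.0). At Sobp/9030612E09Rik both sites were weak, at 31.5 and 45.5. Over all 60 pairs with 2 sites, the stronger had a median value of 272 and length of 762 bp, and the weaker 79.9 and 391.5 bp. The other 9 weak members were alone at their pair, and several of these genes are known for restricted expression. Gabra4/Gabrb1, subunits of the GABA-A receptor, read 29 and 34 in WT and 2 and 47 in KO. Peg3/Usp29, imprinted genes expressed from the paternal copy, read 59 and 58 in WT and 11 and 65 in KO. Smc1b/Ribc2, with a cohesin subunit of meiosis, read 44, 24, 19 and 15. At the receptor and imprinted pairs the KO lines lay on both sides of the WT lines. Sgce/Peg10, another imprinted pair, had a weak site that read 42, 38, 41 and 42 in all 4 libraries, beside a site of 87.8.

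No member was called different between genotypes. Fold changes, KO against WT, were taken on the log2(value + 1) scale, where changes at low values come out smaller, and were fitted with limma over all 82325 sites. The p-values measure only the spread between these lines. At an unadjusted p under 0.01 and a fold of at least 2, no member was less accessible in KO, against 0.302% of all sites, and none was more accessible, against 0.0705%. At an unadjusted p under 0.05, 40 members were higher in KO, against a background of 1.54% of sites, and 1 was lower, against 1.59%. The 40 were 4.91% of members. With the libraries scaled to equal totals, 13 members (1.6%) were higher at that threshold, against 0.937% of all sites. With quantile normalization 2 members (0.245%) were higher, against 1.06% of all sites, and 6 (0.736%) were lower, against 1.59%, so the excess depends on the scaling. No site of the table reached a limma adjusted p under 0.05, and the adjusted p of every member was 1.0.

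The members moved less from line to line than all sites together. Sites with TSSs on both strands in another order came closer to them. The SD of the members' log2 fold changes was 0.187. It was 0.269 for the sites in another order, 0.365 for one-direction promoter sites and 0.533 over all sites. Between lines of the same genotype, the SD of the log2 difference over members was 0.211 for the WT lines and 0.329 for the KO lines, against 0.702 and 0.939 over all sites. The same SDs were 0.254 and 0.373 for the sites in another order and 0.388 and 0.535 for one-direction promoter sites. By at least 1.5-fold, 5 members were lower in KO (0.613%) and 1 was higher (0.123%), against 11.7% and 6.83% of all sites. Of the sites in another order, 3.45% were lower and 0% higher by that much. Members have high values, and the comparison within bins of value is given below.

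The median log2 fold change of the members was 0.0953, against 0.0062 over all sites. It was 0.0787 for sites with TSSs on both strands in another order and 0.0185 for one-direction promoter sites. Above 0 were 604 members (74.1%), 64.5% of the sites in another order, 53.5% of one-direction promoter sites and 50.7% of all sites. The members' median was 0.027 after scaling to equal totals and turned to -0.024 after quantile normalization. The median log2 level of members was 8.322 and 8.276 in the WT lines and 8.344 and 8.455 in the KO lines, a difference of 0.101 (exact two-sided permutation p = 0.333, the smallest that 2 against 2 allows). Less the median of one-direction promoter sites, the levels were 0.664 and 0.699 in WT and 0.715 and 0.841 in KO, a difference of 0.097 (exact permutation p = 0.333). KO stood above WT in both measures, and KO replicate 2 was the farthest out. Members held 3.454% and 3.28% of all normalized counts in WT and 3.389% and 3.614% in KO, where the genotypes overlapped (exact permutation p = 0.667).

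In 275 members (33.7%) both KO lines were above both WT lines, against 14.6% of all sites and 30% of the sites with TSSs on both strands in another order, and in 46 (5.64%) both were below, against 14.3%. After scaling to equal totals the shares of members were 18.8% and 10.6%, and after quantile normalization 8.71% and 17.1%, so the order of these shares turned with the scaling. KO replicate 2, the library with the lowest depth, was the highest of the 4 in 427 of the 815 members. The same count over all sites is not given here. Its median deviation from the mean of the 4 libraries was 0.094 in members and 0.071 in sites with TSSs in another order. That deviation was 0.015 in one-direction promoter sites and 0.008 over all sites, and the part of depth in this was not tested. Without KO replicate 2 the median log2 fold change was 0.051, and without KO replicate 1 it was 0.143.

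The shift followed the level of a site. Members were divided by mean value into 4 bins of 203 or 204 sites. The lowest bin, from 23.75 to 220, had a median log2 fold change of -0.02, and the next, up to 328, 0.09. The third, up to 449, had 0.11 and the highest, up to 1348.5, 0.17. One-direction promoter sites within the same bounds of value had medians of -0.08, 0.04, 0.10 and 0.17, and distal sites 0.01, 0.13, 0.16 and 0.20. The medians of members and one-direction promoter sites were close in the upper bins and farther apart in the lower ones. Signal was not equal in the lowest bin, where median values were 149.5 for members, 103.75 for one-direction promoter sites and 53.25 for distal sites. The SDs of log2 fold change over the sites of a bin were 0.255, 0.151, 0.124 and 0.114 for members and 0.404, 0.168, 0.146 and 0.133 for one-direction promoter sites, closest in the upper 3 bins. Between the WT lines the SD in the lowest bin was 0.289 for members and 0.447 for one-direction promoter sites. In the highest bin it was 0.145 and 0.162. Between the KO lines these SDs were 0.523 and 0.641 in the lowest bin and 0.185 and 0.230 in the highest. Of the 40 members higher at p under 0.05, 32 were in the highest bin, where they were 15.7% of members, against 15.6% of one-direction promoter sites and 19.2% of distal sites in the same bounds. In that bin both KO lines were above both WT lines in 60.3% of members, 54.5% of one-direction promoter sites and 51.8% of distal sites. The rank correlation of level and log2 fold change was 0.42 over members and 0.47 over one-direction promoter sites, a description, since the same 4 libraries give both quantities.

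**Figure D4:**
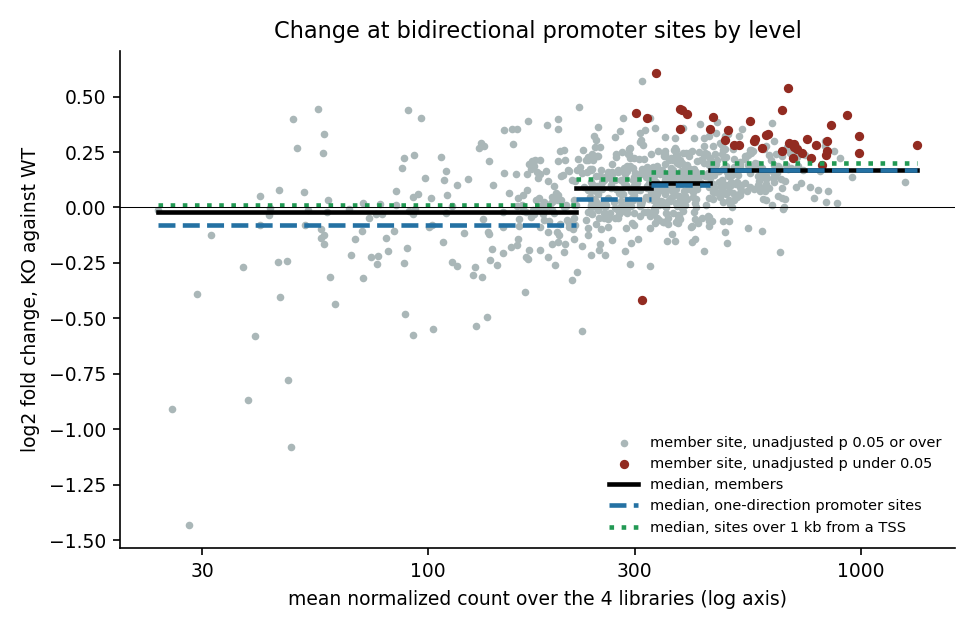
Log2 fold change, KO against WT, of each of the 815 member sites against its mean normalized count (log axis); horizontal lines give the median log2 fold change of members, one-direction promoter sites and sites over 1 kb from a TSS within each bin of the members' values. The members' median goes from -0.02 in the lowest bin to 0.17 in the highest, where one-direction promoter sites also stand at 0.17; quantile normalization turns the median over all members to -0.024.

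The 3 members with an unadjusted p under 0.01 were all on chromosome 19. Zfp91/Lpxn, with a zinc finger ubiquitin ligase and the focal adhesion protein leupaxin, read 819 and 776 in WT and 1028 and 1102 in KO (log2 fold change 0.42, SE 0.08). Pcnx3/Map3k11, with a kinase upstream of JNK, read 578 and 526 in WT and 882 and 728 in KO (0.54, SE 0.12). The genotypes did not overlap at either, a separation that choosing by small p favours. 1110059E24Rik/Abhd17b, with a depalmitoylase, read 543 and 574 in WT and 809 and 708 in KO (0.44, SE 0.10). Chromosome 19 as a whole was shifted: its 27 members had a median log2 fold change of 0.30 and all of its 2573 sites 0.23, and KO replicate 1 deviated from the mean of the 4 libraries by 0.34 in members and 0.35 over all sites. With each library centred per chromosome, the 3 log2 fold changes were 0.21, 0.33 and 0.23.

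Outside chromosome 19 the smallest p among higher members belonged to Mrpl41/Pnpla7, with a protein of the mitochondrial ribosome and a lysophospholipase, which read 682 and 657 in WT and 793 and 868 in KO (log2 fold change 0.31, SE 0.09). 1700029J07Rik/Ufsp2, with a protease of the ubiquitin-like protein UFM1, read 235 and 301 in WT and 402 and 408 in KO (0.60, SE 0.17), the largest rise of any member. The genotypes did not overlap at these pairs, a separation that choosing by small p favours. Under quantile normalization the log2 fold changes were 0.09 and 0.50. Among members lower in KO, Bend6/Dst, with the cytoskeletal linker dystonin, read 382 and 334 in WT and 268 and 266 in KO (-0.42, SE 0.15). It was the only member lower at p under 0.05, and under quantile normalization it stood at -0.52.

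The next lowest p values in this direction missed the threshold. Zfyve28/Cfap99 read 279 and 257 in WT and 226 and 146 in KO (-0.56, SE 0.25). Gm10447/Shroom1, with an actin-binding protein, read 150 and 154 against 126 and 87 (-0.53, SE 0.28). Amigo2/Pced1b, with a neuronal adhesion protein, read 71 and 48 against 25 and 45 (-0.78, SE 0.44), and Smc1b/Ribc2, described above, had -0.91 (SE 0.50). Both KO lines lay below both WT lines in each of these pairs, and the adjusted p was 1.0 for all. Choosing pairs by small p favours such separation, which 14.3% of all sites had in this direction.

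**Figure D5:**
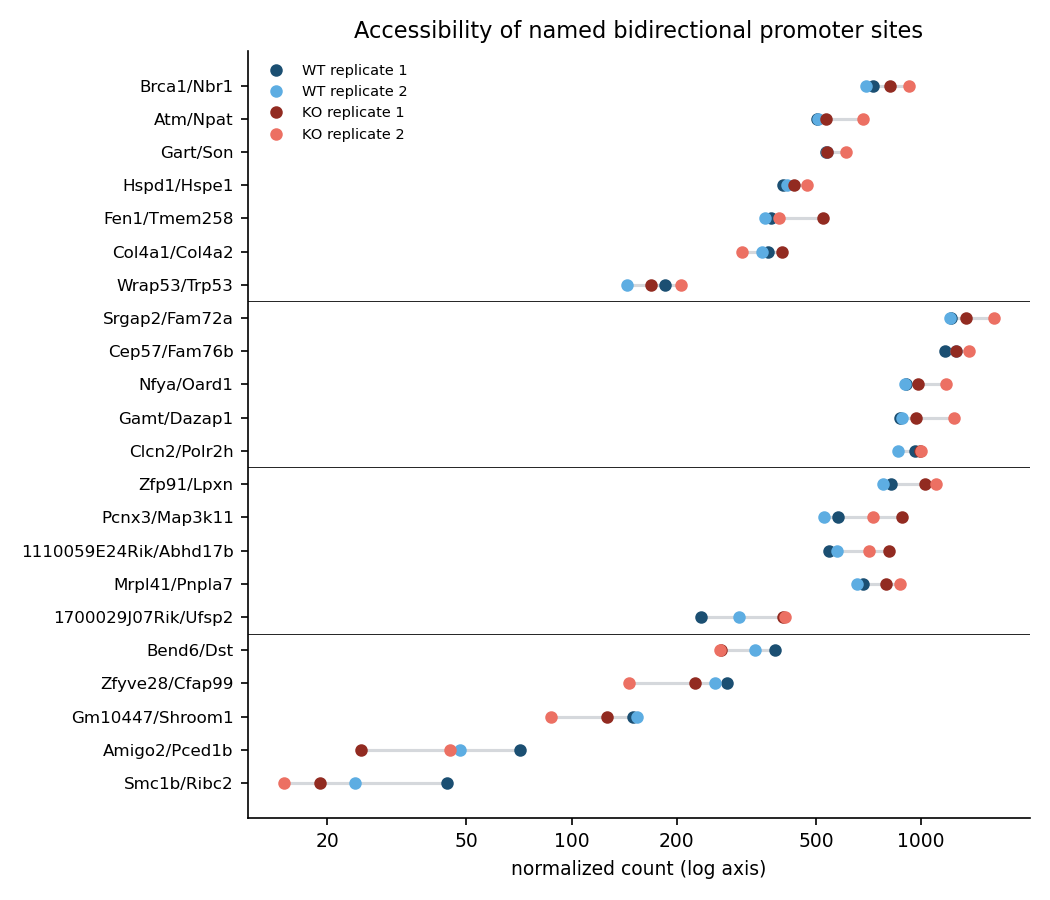
Normalized counts (log axis) in each of the 4 libraries at 22 named member sites, in 4 blocks from top to bottom: textbook pairs, the 5 strongest members, the 5 smallest p among members higher in KO and the 5 smallest p among members lower in KO; each point is 1 library and grey lines join the lowest and highest. In the third block both KO lines stand to the right of both WT lines, from 235 at 1700029J07Rik/Ufsp2 to 1102 at Zfp91/Lpxn. Choosing these sites by small p favours such separation.

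List medians of the log2 fold change ranged from -0.30 at the 2 collagen sites to 0.30 at histone genes, and differences between lists were not tested. The collagen sites include the weak site of Col4a4/Col4a3 (-0.58, SE 0.58), and without KO replicate 2 their median was 0.17. DNA repair members (26 sites) had a median log2 fold change of 0.19, with 3 higher and 0 lower at p under 0.05. Replication members (12 sites) had 0.13, with 1 higher and 0 lower. The background over all 815 members was 0.0953, with 40 higher (4.91%) and 1 lower (0.123%), against 1.54% and 1.59% of all sites. Xrcc3/Zfyve21, with a gene of homologous recombination, read 598 and 663 in WT and 736 and 802 in KO at its main site (0.29, SE 0.10), and Aimp2/Pms2, with a mismatch repair protein, read 602, 554, 626 and 638. Chtf18/Rpusd1, with a subunit of an alternative clamp loader, read 545 and 526 in WT and 612 and 737 in KO (0.33, SE 0.12), while Wdhd1/Socs4, with a replisome protein, read 573, 365, 423 and 377 and overlapped. Under quantile normalization the medians of the repair and replication lists were 0.06 and 0.00.

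The 11 sites at histone genes had a median log2 fold change of 0.30, and none passed p under 0.05 in either direction. KO replicate 2 was the highest library in all 11 of them. Their median values were 376.0 and 423.0 in WT and 441.0 and 617.0 in KO, and without KO replicate 2 the median log2 fold change was 0.08. Hist1h2ac/Hist1h2bc, genes of core histones H2A and H2B, read 495, 520, 537 and 723 at its main site (0.30, SE 0.16), and Bola1/Hist2h2ab read 659, 645, 709 and 857. Histone genes have near-identical copies, and how reads matching several copies were counted is not given in the sources used here, so these values are uncertain.

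Genes of the mitochondrion and of protein synthesis had small differences. Mitochondrial ribosome members (22 sites) had a median log2 fold change of 0.13 with 1 higher at p under 0.05, respiratory chain members (22 sites) 0.09 with 0, mitochondrial tRNA synthetases (5 sites) 0.05 with 0, and cytosolic ribosome members (11 sites) 0.10 with 1. No site of these lists was lower at that threshold. Over all members 4.91% were higher and 0.123% lower, and over all sites 1.54% and 1.59%. Ncapd2/Mrpl51, with a condensin subunit, read 583, 537, 628 and 617, and Mrps18b/Ppp1r10 read 640, 579, 648 and 833. Uqcrh/Lrrc41, with a subunit of complex III, read 472, 571, 575 and 547, and the cytosolic ribosome gene Rpl7, at Rpl7/Rdh10, read 689 and 648 in WT and 748 and 842 in KO (0.25, SE 0.10). The lists of splicing genes (20 sites, 0.14), chaperones (13 sites, 0.11), proteasome genes (5 sites, 0.01) and zinc finger proteins (24 sites, 0.06) had 0, 1, 0 and 2 members higher and none lower. Proser3/Hspb6, with a small heat shock protein, was the chaperone site that passed, at 585 and 642 in WT and 708 and 797 in KO (0.29, SE 0.10). Hspa14/Cdnf read 604, 599, 643 and 681 (0.14, SE 0.09). The 2 collagen sites had a median of -0.30, the 2 sites at Foxa3/Sympk and Rhno1/Foxm1 -0.01, and the single purine synthesis site 0.09, with none passing. Quantile normalization brought the medians of the splicing, chaperone, respiratory chain, zinc finger and synthetase lists to between -0.06 and 0.00.

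Under the authors' scaling, most members inside domains of lower average accessibility in KO were not lower in KO themselves. Averaging the log2 fold change over 25 consecutive sites, keeping windows below -0.58 and joining those within 1 Mb gave 170 domains with 3126 sites (3.8%). The domains held 13 members (1.6%) and 273 one-direction promoter sites (2.47%). The median log2 fold change was -0.83 over all sites in the domains, and 0.05 over the 13 members, of which 5 were below 0. Gm9922/Lmo7 (0.01) and Orc3/Rars2 (0.049) were barely above 0. Equal totals moved the median over all 815 members from 0.095 to 0.027. Values of the 13 under that scaling are not given here, so how many stay above 0 depends on the scaling. Trove2/Uchl5, with an RNA-binding autoantigen and a deubiquitinase, read 387 and 334 in WT and 388 and 439 in KO, while the sites around it averaged -1.66. Mrpl50/Zfp189 read 319, 371, 384 and 364 among sites averaging -0.81. The lowest of the 13 were the weak sites of Gabra4/Gabrb1 (-1.43, SE 1.24) and Peg3/Usp29 (-1.08, SE 0.78), each low in KO replicate 1 alone. The domains were chosen by these same fold changes, so the low median over their sites was set by that choice. Joining also took in members whose own window lay above the cutoff, such as Orc3/Rars2 (-0.087). The members' own values enter these averages, and the difference between members and their neighbours was not tested. Fold changes of the one-direction promoter sites in the domains are not given here, so nothing particular to members is shown.

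Chromosomes 14 and 15 were also shifted as a whole. On chromosome 15 the 26 members had a median log2 fold change of 0.23 and all sites 0.12, with KO replicate 1 high by 0.17 in members. On chromosome 14 the 26 members had -0.07 and all sites -0.18, with WT replicate 1 high by 0.23 in members. Of the 40 members higher at p under 0.05, 29 lay outside chromosomes 14, 15 and 19. Without these 3 chromosomes the median over members was 0.093. The part of whole-chromosome differences between lines in single members was not tested beyond the values centred per chromosome.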

How the data were processed

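ATAC-Seq values of 4 immortalized MEF lines, 2 HAT1 WT and 2 HAT1 KO, were taken from 1 table of merged regions. Per the submitters' processing notes and the study's methods, the authors aligned reads to mm10 with BWA 0.7.12, called peaks with MACS2 2.1.0 and compared genotypes with DESeq2. The deposited values are a score: the authors divided each read count by a factor per library and rounded it to whole numbers, so no count test was run. How reads were filtered, counted when they matched several places, or shifted for Tn5 is not given in the sources used here. The table also holds columns of the authors' own comparison (fold changes, raw and shrunken, with p-values before and after adjustment), which were not used.

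Sites were joined to gene-level TSSs of protein-coding genes from GENCODE on GRCm38 (mm10), whose chromosomes contained all sites. Sequence was read from that assembly. Members' 300-base windows were centred on the midpoint, and each site took the pair with the smallest distance between TSSs. Genes per list were matched by symbol. The members and gene lists were chosen with earlier results of these data known. Values were fitted as log2(value + 1) with limma 3.58.1 (intensity trend) in R 4.3.3 over all 82325 sites with Benjamini-Hochberg adjustment, and the script was tested on simulated data. Library medians were compared by exact two-sided permutation. Python 3.11.15, numpy 2.4.6, pandas 2.3.3 and scipy 1.17.1 were used. Alternatives were a pseudocount of 8, no intensity trend, equal totals, quantile normalization, sites at or above the median only, TSSs within 500 bp, no chromosomes 14, 15 and 19, leaving out each library and, chosen after seeing the data, centring per chromosome. Named sites were the 5 smallest p in each direction, the 5 highest values, textbook pairs and the 3 highest sites per gene list. Weak sites, pairs with 2 sites, sites in domains and the largest rise were chosen after their values were seen. Depth is approximate, since the factors were inferred and whether reads or fragments were counted was not stated. Some genes of the lists are not reported here.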

Additional observations from a re-analysis of the deposited data

How the results depend on the processing

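The median log2 fold change of members, 0.095, was 0.027 with equal totals and -0.024 with quantile normalization, while over all sites it was 0.0062, -0.061 and -0.0002. The share with both KO lines above both WT lines, 33.7%, was 18.8% and 8.71% under these scalings, and the share below, 5.64%, was 10.6% and 17.1%. With quantile normalization 15 of the 77 named sites turned from higher to lower in KO and 1 the other way. Among them were Nfya/Oard1 and Srgap2/Fam72a (-0.03), Cep57/Fam76b (-0.20), Clcn2/Polr2h (-0.12), Tecr/Dnajb1 (-0.11) and Gart/Son (-0.08). Members higher at p under 0.05 numbered 40 (4.91%, against 1.54% of all sites). They numbered 13 with equal totals (1.6% against 0.937%), 2 with quantile normalization (0.245% against 1.06%), 54 with each library centred per chromosome (6.63% against 1.87%), 19 without KO replicate 2 (2.33% against 2.11%) and 98 without KO replicate 1 (12% against 3.04%). Leaving out 1 library at a time gave medians of 0.051 to 0.143, a difference from one-direction promoter sites of 0.034 to 0.118 (0.077 with all libraries), and SDs of the log2 fold change over members of 0.189 to 0.261 (0.187 with all libraries). It gave 0 to 2 members called less accessible in KO and 0 called more accessible. The 2 calls, Gabra4/Gabrb1 (log2 fold change -3.43) and Peg3/Usp29 (-2.31), came without KO replicate 2, with limma adjusted p = 0.792 for both, and with KO replicate 1 then the lone KO line, assumed to vary like the WT lines. The other alternatives kept the direction of the median and made no call among members. Of 616 values of 77 named sites under 8 alternatives, 565 moved by less than the spread between lines. Leaving out 1 library moves a value by a part of the difference between lines itself. Those alternatives could thus hardly exceed the spread, and the count of 565 does not measure how stable the values were. The causes were not tested.

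No paired analysis was made, because no label states which lines are related, and the accession order of the replicates pairs none. A WT and a KO library share a number in their titles, and whether these lines come from related embryos is not stated. With 2 lines per genotype no exact test can go below 0.333, and the lower depth of the KO libraries limits the precision of the KO values.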
